A study of Ovis aries with 4 samples.

Results

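S100B, MT3 and ADIRF are 3 protein-coding genes that took a far larger share of the RNA in droplet libraries of whole cells than in libraries of nuclei from the sheep striatum, a deep region of the forebrain. They were chosen for that difference. They were found by symbol among the 26478 gene identifiers listed in the deposited matrices, as S100B (ENSOARG00020013409), MT3 (ENSOARG00020023684) and ADIRF (ENSOARG00020026372), and all 3 had counts in every library. The study profiled frozen striatum of 4 sheep, labelled as 5 years old, with no treatment or genetic change named. Whole cells, released with the protease papain, and nuclei, released by homogenising tissue in a detergent buffer, were each run as 2 libraries. Every library pooled 2 animals: sheep 1 and 2 in replicate 1 and, by the sample titles, sheep 3 and 4 in replicate 2. The protocol text names animals 2 and 3 for the second whole cells suspension, so the match of animals between the second libraries rests on the titles.

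S100B encodes a small calcium-binding protein of the S100 family that is widely used as an astrocyte marker, and that oligodendrocyte lineage cells also make. MT3 encodes metallothionein 3, the brain-enriched member of a family of small cysteine-rich proteins that bind zinc and copper. ADIRF encodes adipogenesis regulatory factor, a small protein first described in fat tissue, where it promotes fat cell differentiation. Nuclei hold newly made and unspliced transcripts, whereas whole cells also hold the mature mRNA of the cytoplasm and the transcripts of mitochondria.

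The libraries differed strongly in content. A barcode marks 1 droplet and a UMI, or unique molecular identifier, marks 1 captured RNA molecule. The whole cells libraries held 2162 and 32500 barcodes with a median of 33 and 67 non-mitochondrial UMIs each, and 88.7% and 86.9% of their UMIs were mitochondrial. The nuclei libraries held 8815 and 8723 barcodes with a median of 2589 and 2010 non-mitochondrial UMIs, and under 1% of their UMIs were mitochondrial. At least 200 genes were detected under 68 and 269 barcodes of the whole cells libraries and under 8810 and 8720 of the nuclei libraries. Any pair of libraries shared between 2 and 87 barcode sequences, at most 0.997% of the smaller library. Levels below are CPM, the count per 1000000 non-mitochondrial UMIs of the library or class, unless another scale is named, and 95% intervals are exact and cover counting error only.

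S100B was counted 108 times in whole cells replicate 1, 2920 times in whole cells replicate 2, 220 times in nuclei replicate 1 and 338 times in nuclei replicate 2. Its level was 857 and 1162 CPM in the whole cells libraries and 3.15 and 6.67 CPM in the nuclei libraries. The groups did not overlap, with 1010 ± 215 CPM in whole cells and 4.91 ± 2.49 CPM in nuclei (SD, n = 2). Within the pool of sheep 1 and 2 the whole cells level was 272-fold the nuclei level, and within the pool of sheep 3 and 4 it was 174-fold.

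MT3 had 325 and 22503 UMIs in the whole cells libraries and 3670 and 2460 UMIs in the nuclei libraries, in replicate order. These were 2580 and 8955 CPM in whole cells and 52.5 and 48.5 CPM in nuclei. The whole cells libraries were 3.47-fold apart, the nuclei libraries lay close together, and the kinds did not overlap. The means were 5768 ± 4508 CPM in whole cells and 50.5 ± 2.81 CPM in nuclei (SD, n = 2). The ratio was 49.2-fold in the pool of sheep 1 and 2 and 185-fold in the pool of sheep 3 and 4, so its size depended on the pool.

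ADIRF was counted 52 and 1228 times in whole cells and 306 and 219 times in nuclei. Its level was 413 and 489 CPM in whole cells and 4.38 and 4.32 CPM in nuclei. The libraries of each kind lay closest together for this gene, at 451 ± 53.7 CPM against 4.35 ± 0.0404 CPM (SD, n = 2). The whole cells level was 94.3-fold and 113-fold the nuclei level in the pools of sheep 1 and 2 and of sheep 3 and 4.

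The scale set the size of these ratios. As a share of all UMIs, mitochondrial ones included, the whole cells level was 31.0-fold and 22.9-fold the nuclei level for S100B, 5.60-fold and 24.3-fold for MT3, and 10.7-fold and 14.9-fold for ADIRF. All 3 still took the larger share in whole cells in both pools.

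Raw UMIs per barcode gave another picture. S100B averaged 0.04995 and 0.0898 UMIs per barcode in whole cells and 0.0250 and 0.0387 in nuclei, again without overlap. MT3 averaged 0.1503 and 0.692 UMIs per barcode in whole cells and 0.416 and 0.282 in nuclei, so the nuclei libraries lay between the whole cells libraries. ADIRF averaged 0.0241 and 0.0378 UMIs per barcode in whole cells and 0.0347 and 0.0251 in nuclei, again with overlap. For MT3 and ADIRF, therefore, a higher count per barcode in whole cells was seen in the pool of sheep 3 and 4 and not in the other.

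**Figure D1:**
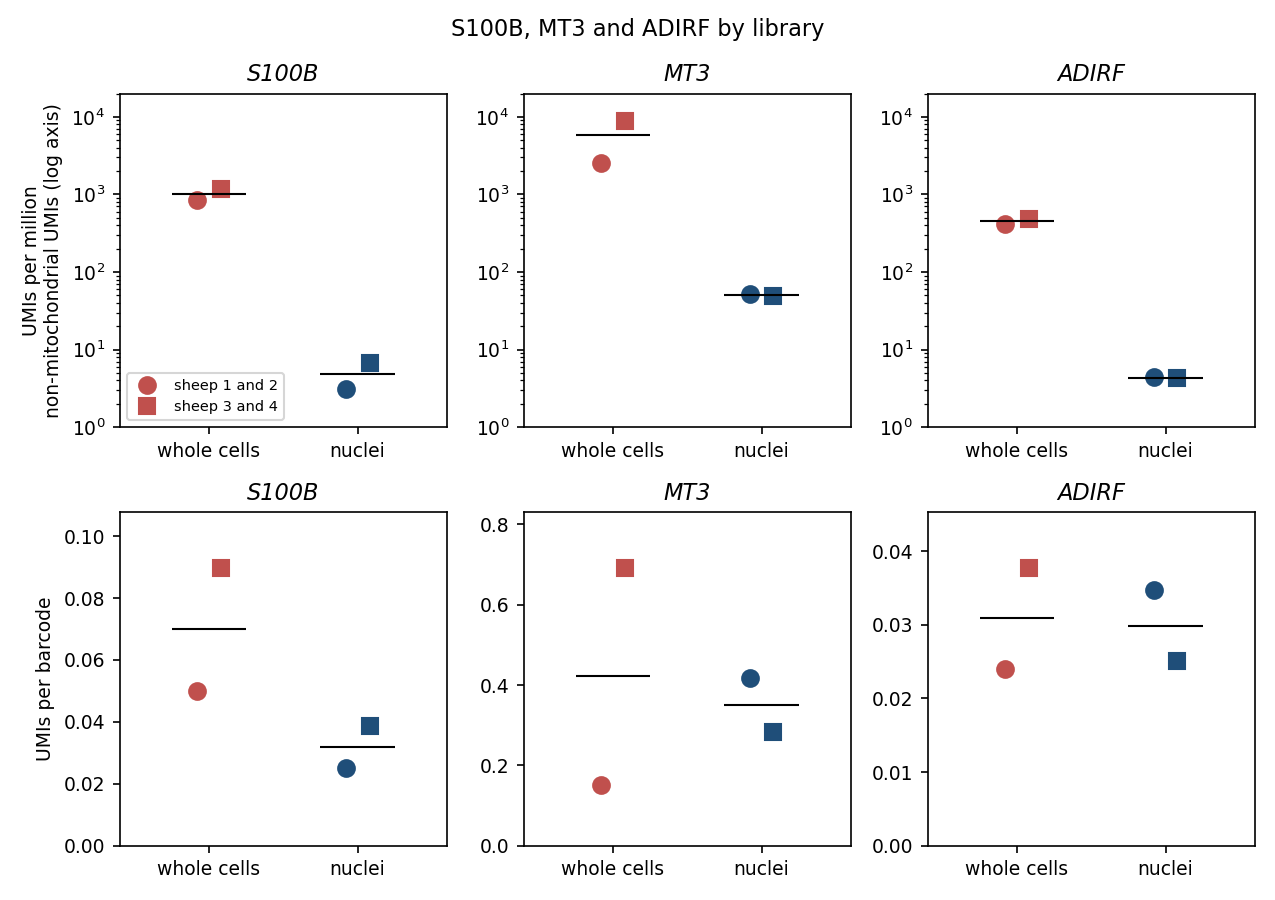
Level of S100B, MT3 and ADIRF in each library, as CPM of non-mitochondrial UMIs on a log axis (top) and as UMIs per barcode on a linear axis (bottom). Circles are pools of sheep 1 and 2, squares pools of sheep 3 and 4, and lines the mean of 2 libraries; the groups stand apart for all 3 genes in the top row and overlap for MT3 and ADIRF in the bottom row.

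The share of barcodes with at least 1 UMI followed the raw counts. It was 4.58% and 8.42% in whole cells and 2.34% and 3.51% in nuclei for S100B. For MT3 it was 11.6% and 46.0% in whole cells and 25.6% and 19.6% in nuclei, and for ADIRF 2.17% and 3.53% against 2.75% and 2.20%. Most positive barcodes held a single UMI, from 65.3% for MT3 in whole cells replicate 2 to 94.2% for S100B in nuclei replicate 1. After every barcode was thinned to 249 UMIs, mitochondrial ones included, none was lost and the groups no longer overlapped. Then S100B was found in 3.33% and 3.82% of whole cells barcodes and in 0.193% and 0.367% of nuclei. MT3 was found in 8.09% and 25.6% of whole cells barcodes against 2.42% and 2.66% of nuclei. ADIRF was found in 1.34% and 1.61% against 0.295% and 0.229%. The most MT3 UMIs under 1 barcode were 18 in whole cells and 22 in nuclei, both in replicate 2.

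Within the whole cells libraries the level was nearly flat across barcodes with few RNA molecules and lower in the fullest ones. In whole cells replicate 2, MT3 stood at 9256 CPM in barcodes with 25 to 49 non-mitochondrial UMIs, 9384 CPM in those with 50 to 99 and 9712 CPM in those with 100 or more but under 200. In the 408 barcodes with 200 or more it stood at 3310 CPM (95% Poisson interval 3064 to 3572). S100B was at 1094, 1248 and 1233 CPM in the same 3 ranges and at 393 CPM (311 to 489) in the fullest barcodes. ADIRF was at 481, 506 and 529 CPM and then at 253 CPM (189 to 333). In whole cells replicate 1 the 93 fullest barcodes had 242 CPM of S100B (105 to 477), 1575 CPM of MT3 (1176 to 2066) and 333 CPM of ADIRF (166 to 596). The first 2 intervals lay below those of every range from 25 up to 200 UMIs in that library, and the ADIRF interval overlapped them.

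**Figure D2:**
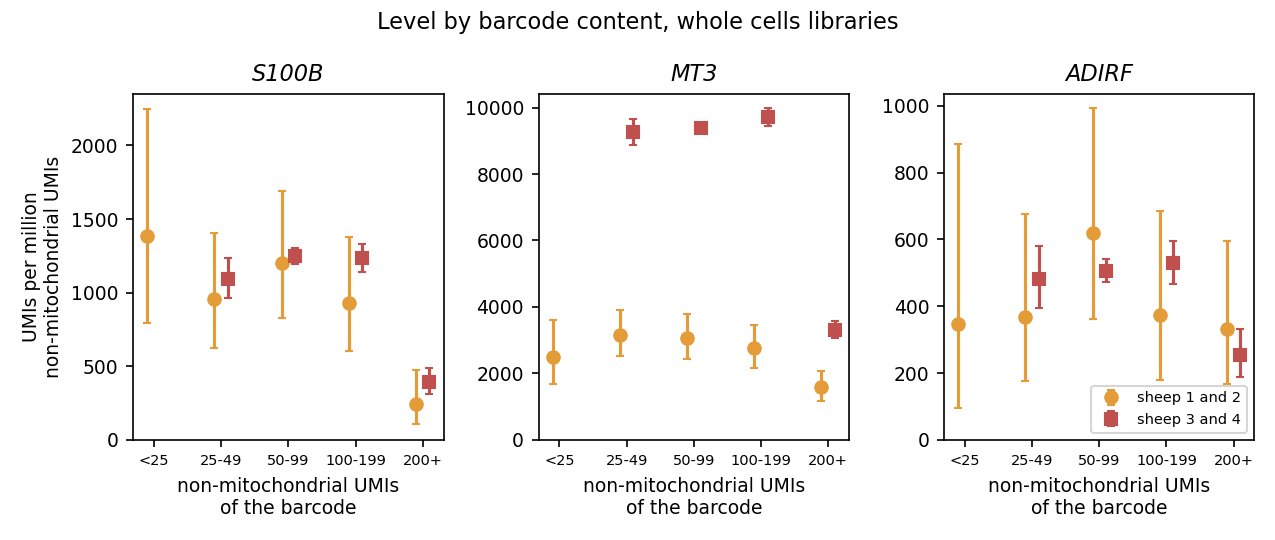
Level of the 3 genes (CPM of non-mitochondrial UMIs, linear axes) in whole cells barcodes grouped by their non-mitochondrial UMIs, with exact 95% Poisson intervals. Circles are whole cells replicate 1 and squares replicate 2, whose group under 25 UMIs (26 barcodes) is left out; in replicate 2 the fullest barcodes are lowest for all 3 genes.

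Barcodes with at least 200 genes, the usual minimum for a cell, therefore had lower levels than the whole libraries. S100B had 6 and 49 UMIs in these barcodes of whole cells replicates 1 and 2, or 223 CPM (81.7 to 485) and 288 CPM (213 to 381). MT3 had 853 CPM (541 to 1281) and 2488 CPM (2257 to 2737). ADIRF had 148 CPM (40.4 to 380) from 4 UMIs and 212 CPM (148 to 293). Each of these intervals lay above the level of the same gene in both nuclei libraries.

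Detection of 1 member was compared between barcodes with and without another. In whole cells replicate 1, S100B was present in 7.60% (4.64 to 11.6, exact binomial) of MT3-positive and 4.18% (3.33 to 5.18) of MT3-negative barcodes, and MT3 in 19.1% (9.15 to 33.3) of ADIRF-positive and 11.4% (10.1 to 12.8) of ADIRF-negative ones. For S100B with ADIRF the shares were 4.26% (0.520 to 14.5), from 2 barcodes, and 4.59% (3.73 to 5.57). Positive barcodes there had a median of 63 or 68 non-mitochondrial UMIs, against 31 or 33 for negative ones. In whole cells replicate 2, S100B was present in 9.42% (8.95 to 9.90) of MT3-positive barcodes and in 7.57% (7.18 to 7.97) of MT3-negative ones, whose median non-mitochondrial UMIs were 72 and 63. MT3 was present in 51.5% (48.6 to 54.5) of ADIRF-positive and 45.8% (45.2 to 46.3) of ADIRF-negative barcodes, with medians of 76 and 67. S100B was present in 9.50% (7.87 to 11.3) of ADIRF-positive and 8.38% (8.07 to 8.69) of ADIRF-negative barcodes there, and these intervals overlapped. In nuclei S100B was present in 3.68% (2.94 to 4.54) of MT3-positive against 1.87% (1.56 to 2.23) of MT3-negative nuclei in replicate 1, and in 6.37% (5.26 to 7.63) against 2.81% (2.44 to 3.22) in replicate 2. MT3 was present in 61.6% (55.1 to 67.7) of ADIRF-positive against 24.6% of ADIRF-negative nuclei in replicate 1, and in 54.2% (46.8 to 61.4) against 18.8% in replicate 2. S100B was present in 10.7% of ADIRF-positive against 2.10% of ADIRF-negative nuclei in replicate 1 and in 13.5% against 3.28% in replicate 2. MT3-positive and ADIRF-positive nuclei were also deeper, the latter with medians of 4044 and 3986 non-mitochondrial UMIs against 2555 and 1980, and the part of depth in these shares was not tested.

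The fit across all genes placed the 3 genes among many that differed. The quasi-likelihood test of edgeR on summed counts, with Benjamini-Hochberg adjustment, called 8231 of 15781 tested genes (52.2%), of which 4695 (29.8% of those tested) were higher in nuclei and 3536 (22.4%) were higher in whole cells. The fitted log2 fold change of nuclei over whole cells was -7.71 (SE 0.68) for S100B, -6.94 (SE 0.73) for MT3 and -6.69 (SE 0.60) for ADIRF. All 3 passed the filter on low counts, and their calls are not read as a result, since this contrast chose them. These values carry the composition factors of the TMM method, and the median over all tested genes was 0.61. With library size alone the median moved to 3.66, 12537 genes (79.4%) were called higher in nuclei and 498 (3.16%) in whole cells, and the members stood at -4.71, -3.88 and -3.71. In barcodes of at least 200 genes they stood at -4.60, -3.94 and -4.27, with a median of 1.09 over all tested genes. Without whole cells replicate 2 MT3 stood at -5.28, and the median over all tested genes moved to 4.37. Since these are sums over libraries, fewer cells of a type and less RNA per cell cannot be told apart.

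Of the 8 tested genes on the list of other S100 family genes 7 were higher in whole cells and 1 in nuclei, against 22.4% and 29.8% of all tested genes. Their median log2 fold change was -4.33, against 0.61 over all tested genes. The other 8 listed genes had too few counts to be tested. With library size alone 4 were higher in whole cells and 1 in nuclei, against 3.16% and 79.4% of all tested genes, and S100A10 turned to 0.25 and S100A4 to 1.10, neither called. S100A1, found in muscle and nerve cells, was at 714 and 393 CPM in whole cells and at 12.7 and 14.5 CPM in nuclei (log2 fold change -5.20, SE 0.55, edgeR adjusted p = 4.23e-09). S100A13, a copper-binding member, was at 452 and 350 CPM against 8.09 and 10.8 CPM (-5.33, SE 0.55). S100A16 was at 87.3 and 78.8 CPM against 4.46 and 4.83 CPM (-4.17, SE 0.42). S100A10, the partner of annexin A2, had only 2 and 37 UMIs in whole cells (-2.85, SE 0.59). The gene higher in nuclei was S100PBP, which encodes a binding partner of an S100 protein and is not itself an S100 protein (2.17, SE 0.50).

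Of the 4 tested metallothioneins other than MT3, 3 were higher in whole cells, against 22.4% of all tested genes, and 1 was not called. MT1A was at 730 and 827 CPM in whole cells and 17.9 and 21.0 CPM in nuclei (log2 fold change -5.30, SE 0.58, edgeR adjusted p = 6.92e-09). MT2 was at 643 and 1256 CPM against 30.4 and 31.3 CPM (-4.999, SE 0.60), and MT1C at 127 and 150 CPM against 1.29 and 1.74 CPM (-6.59, SE 0.50). All 3 were also called higher in whole cells with library size alone. MT4, without a single UMI in whole cells, had 36 and 19 in nuclei and was not called by edgeR (adjusted p = 0.236); with library size alone it was called higher in nuclei (adjusted p = 0.00802). Metallothionein genes are alike in sequence, as are some S100 genes, so their counts are uncertain as far as reads were shared between them.

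**Figure D3:**
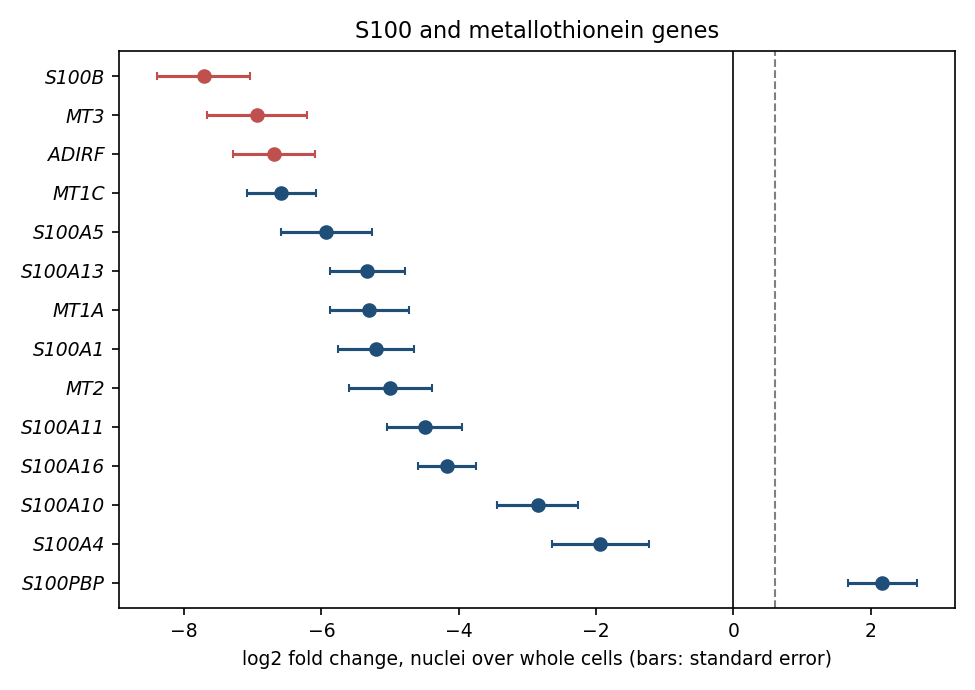
Fitted log2 fold change of nuclei over whole cells (horizontal axis) with its standard error for S100B, MT3 and ADIRF (red) and for the tested genes of the S100 and metallothionein lists with over 3 UMIs in whole cells (blue). The dashed line is the median of all tested genes, 0.61, and S100PBP alone among the genes drawn lies to its right; with library size alone S100A10 and S100A4 also turn positive, at 0.25 and 1.10.

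Genes that act with the 3 proteins were called in both directions. Over all tested genes, 29.8% were higher in nuclei and 22.4% in whole cells, and nothing particular to these lists is read from their counts. Of 25 tested zinc and copper handling genes, 10 were higher in nuclei, 5 were higher in whole cells and 10 were not called, with a median log2 fold change of 1.05. SOD1, the copper and zinc superoxide dismutase, was higher in whole cells (-3.74, SE 0.54), and the zinc transporters SLC39A11 (5.73, SE 0.67) and SLC30A7 (4.53, SE 0.60) were higher in nuclei. SLC39A11 and SLC30A7 had no UMIs in whole cells replicate 1 and only 7 and 11 UMIs in replicate 2. Among those not called was the zinc importer SLC39A10 (0.80, SE 0.46, edgeR adjusted p = 0.145). Of 7 tested genes for proteins that bind S100B, 3 were higher in nuclei, among them IQGAP1 (1.29, SE 0.44) and STK38 (1.94, SE 0.48), and 3 were not called. GFAP, which encodes the astrocyte intermediate filament, was the 1 higher in whole cells (-3.66, SE 0.52). Of 10 tested adipogenesis genes, 5 were higher in nuclei, among them PPARG, the master regulator of fat cells (2.45, SE 0.70, from 6 UMIs in whole cells). CEBPD alone was higher in whole cells, also from 6 UMIs there (-2.35, SE 0.95). EBF1 and ADIPOQ, both called higher in nuclei, had no UMIs in whole cells, so no fold is given. LPL was at -0.89 (SE 0.47) and was not called. With library size alone LPL was called higher in nuclei, at 2.22, and CEBPD turned to 0.72, not called. With library size alone the counts higher in nuclei and in whole cells were 19 and 1 for zinc and copper handling, 6 and 1 for the S100B-binding list and 9 and 0 for adipogenesis genes. Over all tested genes, 79.4% were then higher in nuclei and 3.16% in whole cells, and nothing particular to the lists is read from these counts either.

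Calls among the astrocyte markers went both ways. The 13 listed markers summed to 1651 and 2339 CPM in whole cells and 2342 and 2630 CPM in nuclei. Without GPC5, left out after its values were seen, the other 12 summed to 1627 and 2314 CPM in whole cells and 902 and 1030 CPM in nuclei, the opposite order. In whole cells replicate 1, NTSR2 and RFX4 were at 0. Of the 13 tested, 5 were higher in whole cells (22.4% of all tested genes were), 4 in nuclei (29.8% of all) and 4 were not called. Their median log2 fold change was -0.55, against 0.61 over all tested genes. With library size alone 8 were higher in nuclei and 4 in whole cells, against 79.4% and 3.16% of all tested genes. The median was then 2.56, against 3.66 over all tested genes. GFAP was at 579 and 437 CPM in whole cells against 30.7 and 45.6 CPM in nuclei. GPC5, a long-intron proteoglycan gene, was at 23.8 and 25.5 CPM against 1440 and 1600 CPM. The glutamate transporters SLC1A2 (-0.41, SE 0.56) and SLC1A3 (-1.18, SE 0.54) were not called by edgeR (adjusted p = 0.557 and 0.0671). With library size alone both were called higher in nuclei, at 2.58 and 1.81. The 10 markers of vessel mural cells, which are known to express ADIRF in other tissues, summed to 31.8 and 45.8 CPM in whole cells and 23.8 and 28.3 CPM in nuclei. In whole cells replicate 1, 6 of them were at 0, and in replicate 2 CSPG4 and DES were. The 13 listed oligodendrocyte markers, of cells that also make S100B, summed to 3747 and 877 CPM in whole cells and 1768 and 2166 CPM in nuclei, with none at 0. The 15 medium spiny neuron markers summed to 476 and 1505 CPM in whole cells, with ADORA2A, DRD2 and PDE1B at 0 in replicate 1, and to 6000 and 5301 CPM in nuclei. The part of any of these cell types in the members' levels was not tested.

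The few nuclear counts lay mostly in glia for S100B and ADIRF, and for MT3 in glia and medium spiny neurons. The 3 genes were left out when 8310 and 8388 nuclei of replicates 1 and 2 were clustered, and 253 and 154 of these nuclei fell in clusters left unnamed. A lymphocyte-like cluster of 11 and 9 nuclei was too small for a level. The other nuclei fell in 7 classes named from markers, among them medium spiny neurons, the projection neurons of the striatum. Astrocyte-like nuclei were 8.60% and 7.75% of the nuclei and held 4.06% and 4.34% of the UMIs. They came from 2 clusters, a larger one of 481 and 513 nuclei led by SLC1A2 and GFAP, and a smaller one of 234 and 137 nuclei led by NWD2, DTHD1 and GPC3. For all 3 genes the astrocyte-like class had the highest level and its 2 libraries did not overlap those of the next class. No test was made between classes.

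S100B stood at 25.0 (19.4 to 31.7) and 28.0 CPM (21.4 to 35.9) in astrocyte-like nuclei of replicates 1 and 2. Oligodendrocyte-like nuclei came next with 7.61 and 16.8 CPM, then neuron-like nuclei, with few medium spiny or interneuron markers, at 6.01 and 16.5 CPM, and these overlapped. Oligodendrocyte precursor-like nuclei had 3.82 and 8.95 CPM, microglia-like nuclei 2.66 and 7.69 CPM, and interneuron-like nuclei 2.24 and 4.28 CPM, each overlapping its neighbour in that order. Medium spiny neuron-like nuclei were lowest, at 0.498 and 1.57 CPM, below all others without overlap. In each of these 7 classes S100B was higher in replicate 2 than in replicate 1.

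MT3 stood at 391 (368 to 416) and 309 CPM (286 to 333) in astrocyte-like nuclei. Neuron-like nuclei followed with 81.6 and 94.5 CPM, then oligodendrocyte-like nuclei with 66.1 and 61.7 CPM and microglia-like nuclei with 73.9 and 51.9 CPM, which overlapped each other. Oligodendrocyte precursor-like nuclei had 36.0 and 47.4 CPM and interneuron-like nuclei 54.2 and 25.2 CPM, again overlapping. Medium spiny neuron-like nuclei were lowest, with 23.6 and 21.0 CPM. MT3 thus had counts in every one of these classes, at a 15.7-fold range of class means.

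ADIRF stood at 66.8 (57.3 to 77.3) and 50.9 CPM (41.9 to 61.3) in astrocyte-like nuclei. The next mean was that of microglia-like nuclei, whose libraries were far apart at 12.6 CPM (7.61 to 19.8) from 19 UMIs and 1.28 CPM (0.155 to 4.63) from 2 UMIs. Neuron-like nuclei had 4.30 and 4.72 CPM and oligodendrocyte-like nuclei 3.55 and 4.01 CPM. Oligodendrocyte precursor-like, interneuron-like and medium spiny neuron-like nuclei had 1.27 and 2.32, 1.12 and 0.902, and 0.543 and 0.871 CPM. The mean of the astrocyte-like class was 83.2-fold that of the lowest class.

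**Figure D4:**
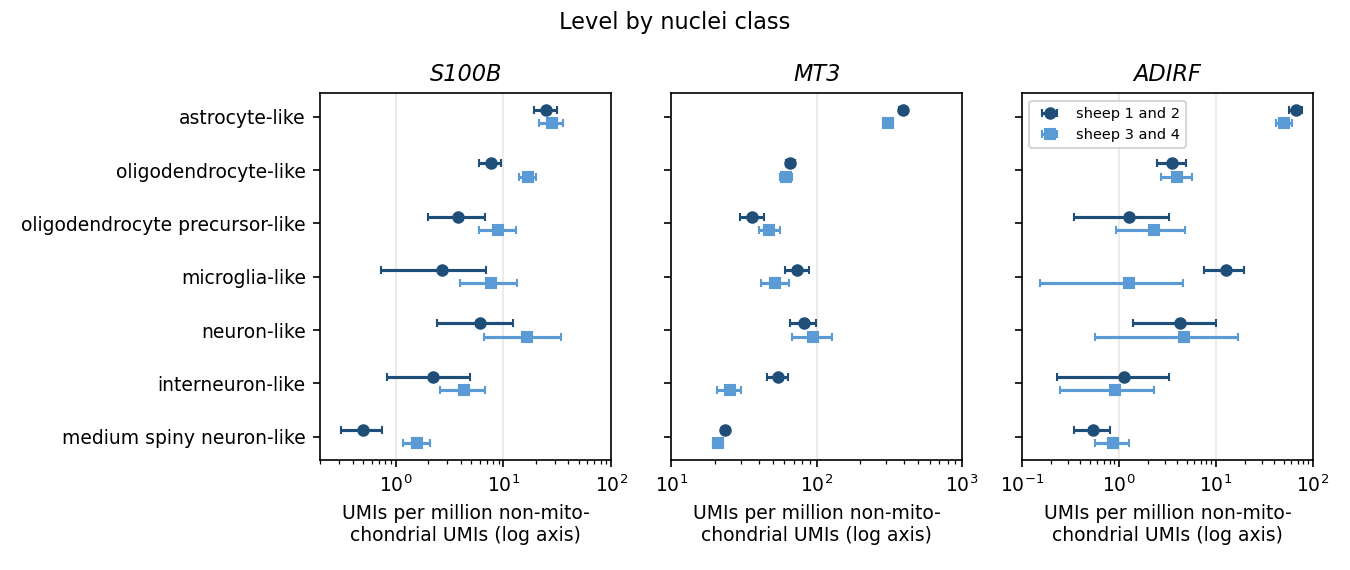
Level of the 3 genes by nuclei class (CPM of non-mitochondrial UMIs, log axes that differ between panels), with exact 95% Poisson intervals for counting error. Circles are nuclei replicate 1 and squares replicate 2; astrocyte-like nuclei are rightmost in every panel, and the microglia-like circle and square of ADIRF are far apart.

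Astrocyte-like nuclei held 33.2% (26.7 to 40.1, exact binomial) and 18.9% (14.8 to 23.6) of the S100B UMIs, 31.7% (30.2 to 33.4) and 28.7% (26.9 to 30.6) of the MT3 UMIs, and 64.6% (58.7 to 70.2) and 53.9% (46.8 to 60.8) of the ADIRF UMIs. Oligodendrocyte-like nuclei, 46.1% and 46.5% of all nuclei, held 37.1% (30.5 to 44.2) and 39.01% (33.7 to 44.6) of the S100B UMIs, with overlap between the classes in replicate 1. They held 19.7% of MT3 in both replicates and 12.6% and 14.6% of ADIRF. Medium spiny neuron-like nuclei held 31.6% and 26.7% of the MT3 UMIs, with 67.2% and 59.2% of all UMIs. For comparison, markers that helped name the class placed 86.3% and 73.2% (GFAP) and 67.6% and 57.3% (AQP4, a water channel) of their UMIs in astrocyte-like nuclei.

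**Figure D5:**
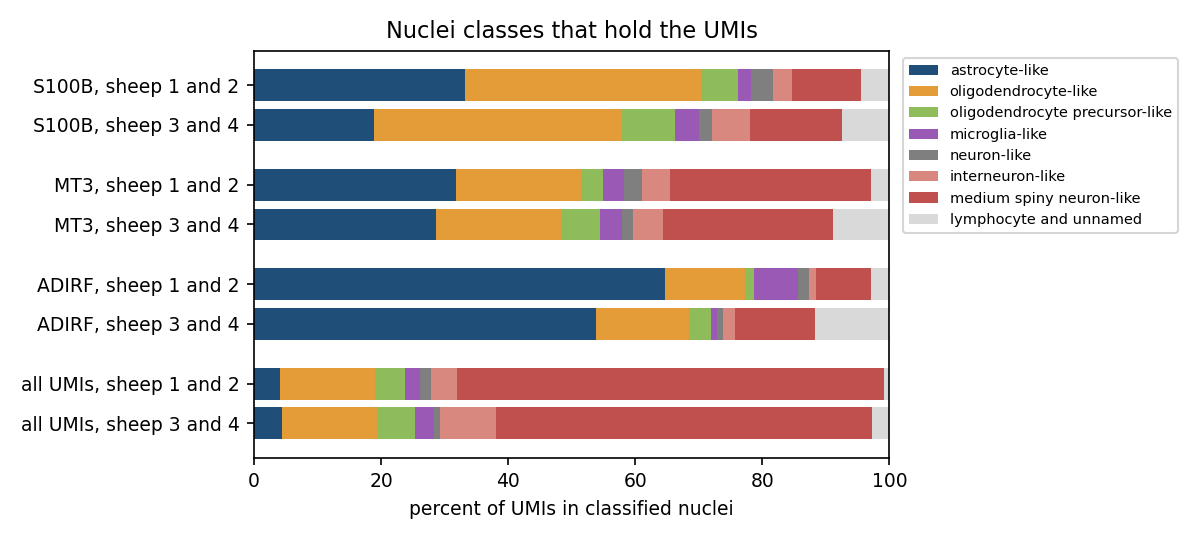
Percent of the UMIs of S100B, MT3, ADIRF and all genes in classified nuclei that each class held, 1 bar per nuclei library. The astrocyte-like segment is 64.6% and 53.9% for ADIRF against 4.06% and 4.34% of all UMIs, and medium spiny neuron-like nuclei hold most of all UMIs.

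Inside the astrocyte-like class the larger cluster had the higher levels, though for S100B the intervals of the clusters overlapped in replicate 2. In the larger cluster S100B was at 29.5 (22.7 to 37.7) and 30.1 CPM (22.8 to 39.2), MT3 at 448 and 343 CPM and ADIRF at 82.4 and 59.2 CPM. In the smaller cluster S100B was at 7.34 (2.00 to 18.8) and 15.5 CPM (5.04 to 36.2), MT3 at 167 and 112 CPM, and ADIRF at 5.51 (1.14 to 16.1) and 3.10 CPM (0.0786 to 17.3). In the smaller cluster ADIRF rested on 3 UMIs and 1 UMI, S100B on 4 and 5, and MT3 on 91 and 36. Within the larger cluster MT3 was found in 83.2% (75.7 to 89.2) of ADIRF-positive and 69.7% (64.6 to 74.5) of ADIRF-negative nuclei of replicate 1, with median UMIs of 4313 and 3546. In replicate 2 the shares were 65.2% (54.3 to 75.0) and 61.1% (56.3 to 65.8), and these intervals overlapped. S100B was found there in 11.3% (8.22 to 15.1) of MT3-positive and 11.7% (6.71 to 18.6) of MT3-negative nuclei of replicate 1, so the difference seen over all nuclei of that library was not seen within the cluster. In replicate 2 the shares were 11.4% (8.08 to 15.4) and 5.61% (2.83 to 9.82). S100B was found in 14.5% (8.96 to 21.7) and 14.6% (8.01 to 23.7) of ADIRF-positive against 10.3% (7.31 to 13.95) and 8.02% (5.62 to 11.03) of ADIRF-negative nuclei. The S100B intervals overlapped in each of these pairs. Outside the astrocyte-like class, S100B was in 1.87% (1.27 to 2.64) of MT3-positive and 1.67% (1.36 to 2.03) of MT3-negative nuclei of replicate 1. In replicate 2 the shares were 5.01% (3.89 to 6.34) and 2.75% (2.36 to 3.18), without overlap, at median UMIs of 4594 and 1887. Both pairs with ADIRF went the same way there, with intervals that overlapped in replicate 1 and not in replicate 2.

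S100B also varied among oligodendrocyte-like clusters. The cluster led by MMRN1 and ENPP6, with 484 and 512 nuclei, had 17.6 (11.8 to 25.3) and 37.4 CPM (28.0 to 48.9) of S100B. The cluster with 3201 and 1533 nuclei had 5.16 (3.70 to 7.0003) and 9.88 CPM (6.76 to 13.95). A remaining cluster, with 146 and 1859 nuclei and so nearly all from replicate 2, had 18.7 (6.08 to 43.7) and 14.5 CPM (10.4 to 19.7). MT3 was at 45.6 and 46.5 CPM in the MMRN1 and ENPP6 cluster, below its 69.9 and 55.6 CPM in the cluster of 3201 and 1533 nuclei and its 82.3 and 76.4 CPM in the remaining one. The MT3 intervals of the first and second of these overlapped in replicate 2, as did those of the first and last in replicate 1. ADIRF was at 2.43 (0.663 to 6.23) and 1.41 CPM (0.171 to 5.09) in the MMRN1 and ENPP6 cluster, 3.90 and 3.09 CPM in the second and 0 (up to 13.8) and 6.36 CPM in the last, and these intervals overlapped. ENPP6 is a known marker of newly forming oligodendrocytes.

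An unnamed cluster of 46 and 128 nuclei, in which as many markers of another class as of astrocytes were raised, also held the 3 genes. S100B was at 23.0 and 17.8 CPM there, MT3 at 276 and 151 CPM and ADIRF at 23.0 and 17.8 CPM. In replicate 2 it held 7.43% of the S100B, 8.69% of the MT3 and 11.7% of the ADIRF UMIs. Doublets were not removed in that library, and their part in this cluster was not tested. At a clustering resolution of 1.0 no such unnamed cluster was formed.

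Most astrocyte-like nuclei had no UMI of S100B or ADIRF. At median depths of 2946 and 2783 UMIs, 8.25% and 7.85% had S100B, 58.7% and 53.2% had MT3 and 18.7% and 13.8% had ADIRF. In microglia-like nuclei, with medians of 1674 and 1487 UMIs, the shares were 0.507% and 1.27% for S100B, 12.8% and 8.57% for MT3 and 2.41% and 0.232% for ADIRF. Medium spiny neuron-like nuclei had MT3 in 48.0% and 32.1%, at medians of 28460 and 16189 UMIs. After thinning to 500 UMIs per nucleus MT3 was found in 17.2% and 15.7% of astrocyte-like, 4.94% and 3.94% of microglia-like and 1.95% and 2.44% of medium spiny neuron-like nuclei. RNA free in the droplets was not measured here, and its part in these shares was not tested.

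As a share of non-mitochondrial UMIs, the whole cells level was above that of astrocyte-like nuclei for all 3 genes. It was 34.3-fold and 41.5-fold that of astrocyte-like nuclei for S100B, 6.60-fold and 29.0-fold for MT3 and 6.18-fold and 9.60-fold for ADIRF, in replicates 1 and 2. As a share of all UMIs, a scale added after the values were seen, the ratio was 3.89 and 5.47 for S100B, 0.748 and 3.82 for MT3 and 0.701 and 1.27 for ADIRF, so in replicate 1 MT3 and ADIRF were lower in whole cells on that scale. Per barcode, an astrocyte-like nucleus held 9.76 and 1.498 times as many MT3 UMIs as a whole cells barcode and 10.4 and 4.52 times as many ADIRF UMIs. For S100B the ratio was 1.88 (1.36 to 2.57, exact interval for counting error only) in replicate 1. In replicate 2 it was 1.04 (0.797 to 1.35), from 61 UMIs in 650 astrocyte-like nuclei, an interval that holds 1. Whole cells barcodes were not sorted into classes here.

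Other metallothioneins also had counts in astrocyte-like nuclei, which held 55.9% and 47.5% of the MT2 UMIs and 54.2% and 46.6% of the MT1A UMIs, with MT2 at 387 and 327 CPM and MT1A at 221 and 218 CPM. They held 32.5% and 37.8% of the MT1C UMIs. Medium spiny neuron-like nuclei held 12.9% and 11.2% of the MT2, 16.5% and 11.6% of the MT1A and 20.5% and 8.54% of the MT1C UMIs, against 31.6% and 26.7% of MT3. Of the S100 relatives, oligodendrocyte-like nuclei held 49.9% and 53.9% of S100A1, 41.3% and 43.2% of S100A13 and 40.0% and 43.9% of S100A16, while astrocyte-like nuclei held 7.62% and 7.87%, 21.8% and 16.4%, and 28.1% and 20.7% of them. As levels, S100A1 was at 41.2 and 51.3 CPM in oligodendrocyte-like and 23.1 and 25.7 CPM in astrocyte-like nuclei. S100A13 was the other way, at 21.1 and 30.6 CPM against 41.0 and 39.9 CPM, and so was S100A16, at 10.96 and 13.9 CPM against 28.3 and 22.5 CPM. For both of these genes the intervals overlapped in replicate 2.

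The genes whose class profile was most like each member were ranked by Pearson r of log2(CPM + 1) over 14 points, 7 classes in 2 libraries, among 10643 genes. The points of 1 library share their depth and tissue, and r is given as a description. For MT3 they were MT2 (r = 0.963), AGT, the angiotensinogen gene (0.954), and C6orf52 (0.951). For ADIRF they were AGT (0.959), MT3 itself (0.947) and C6orf52 (0.943). S100B was closest to MFSD2A, a lipid transporter (0.945), MUTYH, a DNA repair glycosylase (0.945), and ACAD11, an acyl-CoA dehydrogenase (0.942). It was less like the other members, with r = 0.803 for MT3 and 0.715 for ADIRF.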

How the data were processed

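The authors deposited raw UMI counts per gene and barcode, 1 matrix per library, from Cell Ranger 6.0.1 (whole cells) and 7.0.0 (nuclei), per the file headers. The submitters' processing notes list Cell Ranger 2.1.1 and 6.0.1 and STAR 2.7.2a. Genome build, barcode filter and use of intronic reads are not given in the sources used here, so no coordinates are printed, and program version and library kind cannot be told apart. The members and gene lists were chosen with earlier results of these data known.

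Counts summed over all barcodes of each library went into edgeR 4.0.16 (R 4.3.3; quasi-likelihood test, TMM, filterByExpr, Benjamini-Hochberg at 0.05), which was tested on simulated data. DESeq2 1.42.0 was an alternative. Mitochondrial genes were a block of 35 identifiers. Replicates are 2 pools of 2 animals each. The p-values measure the spread between libraries of a kind, in which pool, preparation and depth cannot be told apart. Same-pool libraries did not deviate together from their group means (correlation -0.05 over 1791 genes), and the fit has no block.

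Nuclei with 200 genes or more and no more than 5% of UMIs mitochondrial were clustered with scanpy 1.11.5 (2000 variable genes without the members, 30 components, 15 neighbours, Leiden resolution 0.5) after Scrublet, which called 390 of 8700 nuclei in replicate 1 and 0 of 8388 in replicate 2, where it did not work and doublets remain. A cluster took the class with most markers raised at least 2-fold in mean per-nucleus CPM and found in at least 10% of its nuclei, with 4 markers needed. These thresholds were set after the data were seen, and rebuilt names may differ from the study's. From each gene list, at most the 5 genes with the highest mean CPM were named, and per member the 3 most alike class profiles among genes with at least 200 nuclear UMIs. Genes named for leading or defining a cluster, genes at 0, CEBPD and S100A4 were named after their values were seen. Sequences were not used here.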

Additional observations from a re-analysis of the deposited data

Results flagged for a closer look

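UMIs per barcode of MT3 went opposite ways in the 2 animal pools: on the log2 scale, nuclei over whole cells came to 1.47 in sheep 1 and 2 and -1.30 in sheep 3 and 4. ADIRF did the same, with 0.53 and -0.59. With 1 library of each kind per pool, this difference between pools was not tested. The whole cells libraries of the pools differed in median non-mitochondrial UMIs per barcode, 33 against 67, and the part of that in the ratios was not tested.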

How the results depend on the processing

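All folds of the 3 genes kept their sign under every alternative run. That is not read as support, since the genes were chosen for this contrast and every run drew on the same libraries. The number of genes called was 13035 with library size alone, against 8231, and ranged from 4864 to 10007 when 1 library was left out (4864 without whole cells replicate 2 and 5438 without nuclei replicate 2). A replicate block for the animal pool gave 5471 calls and log2 fold changes of -7.68 for S100B, -6.49 for MT3 and -6.61 for ADIRF; the pools were paired by the titles alone. Library size alone gave -4.71, -3.88 and -3.71, and barcodes with at least 200 genes gave -4.60, -3.94 and -4.27. Without a filter on low counts ADIRF was at -6.49. Leaving out 1 library gave -8.46 to -7.09 for S100B, -7.56 to -5.28 for MT3 and -7.04 to -6.17 for ADIRF. A lone library is then assumed to vary like the others. The smallest of these folds came without whole cells replicate 2, where the median over all tested genes was 4.37, against 0.61 in the main fit. DESeq2 called 6198 genes. With mitochondrial genes left out and library size alone, a setting chosen after seeing the data, the folds were -7.70, -6.84 and -6.71.

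The mean share of UMIs in astrocyte-like nuclei, 26.0% for S100B, 30.2% for MT3 and 59.3% for ADIRF, was 33.9% for MT3 when the nuclei with the top 8% of doublet scores were removed in each library, also chosen after seeing the data. Clustering 1 library alone gave 25.7% to 36.1% for S100B, 33.9% to 36.6% for MT3 and 65.0% to 66.8% for ADIRF. Of all 68 alternative values, 47 stayed within the spread between libraries or within 1.5 times the count. Whole cells replicate 1, with 108, 325 and 52 UMIs of the 3 genes, limits the precision of every ratio in its pool.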
